A study of Bos taurus with 6 samples.

Results

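The genes described here are targets of low-oxygen signalling that lie outside glycolysis, measured in bovine cumulus cells. A list of 35 was taken by name. Of these, 27 have at least 1 probe set with a single gene symbol in the array annotation, 41 probe sets in all, among 9155 genes and 24016 probe sets on the array once control probe sets were left out. No value is reported for KDM4B, CA9, CA12, BHLHE41, ANKRD37, STC2, LOXL2 and HIGD1A, for which no probe set was matched here. Each gene was read from its probe set with the highest mean over all 6 arrays. That mean is the value used to choose, and it gets no test. The group difference played no part in that choice, but the list itself was drawn up with earlier results of these arrays known.

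Low oxygen acts on transcription in animal cells mainly through the hypoxia-inducible factors. When oxygen is plentiful, prolyl hydroxylases mark the alpha subunits of these factors for destruction, and when it is scarce the alpha subunits pair with ARNT and switch on target genes. The best known targets serve glycolysis. The 27 genes belong to other arms of that response: secreted peptides, mitochondrial and mitophagy proteins, collagen-modifying enzymes, chromatin and transcription regulators, and brakes on growth. The follicle wall is vascular, but the granulosa and cumulus cells inside it have no vessels of their own and get oxygen by diffusion.

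The cells were cumulus cells, the somatic cells around the oocyte, from ovaries of slaughtered crossbred cows (Bos indicus x Bos taurus). Complexes with compact cumulus and an even cytoplasm were selected, the cumulus was stripped by pipetting, and RNA from pooled cells was hybridised to Affymetrix bovine arrays. The large-follicle group held 3 arrays, of complexes whose follicles measured 8 mm or more, which the submitters call competent, and the small-follicle group held 3 arrays, of complexes whose follicles measured 1 to 3 mm, which they call incompetent. The labels name no agent or genotype for either group. The titles number biological replicates, but no source used here gives the animals and complexes behind each pool. The p-values therefore measure how much these pools vary, which may be technical, and the number of arrays limits the precision. All values are log2 probe set signals made by the authors with RMA, and differences are large minus small, so 1 unit is a doubling. The comparison asks which cumulus transcripts differ with follicle size, the study's stand-in for oocyte competence. In bulk RNA, fewer cells of a type and less RNA per cell cannot be told apart.

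Cumulus cells of large follicles carried more transcript of most of these genes. By limma, with p-values adjusted by Benjamini-Hochberg across 24016 probe sets and a threshold of 0.05, 19 of the 27 rose, 0 fell and 8 were not called. At an unadjusted p under 0.05, 23 were higher and 0 lower, against 1332 higher and 1525 lower of all 9155 genes. Over all 9155 genes read the same way, 7.08% were called higher and 8.30% lower, and over the 6372 genes with a signal at or above the median of probe set means, 9.13% were called higher. The groups did not overlap in 23 of the 27 genes, each time with the large-follicle arrays on top, against 17.6% of all genes. The median difference over the 27 was 0.74, and it was 0.01 over all genes. The differences ran from -0.23 in JMJD6 to 2.71 in NDRG1, and 6 of the 27 were among the 100 genes with the largest increase on the array. Of the 19 that rose, 5 did so at least 2-fold: NDRG1, BHLHE40, MXI1, ERO1A and BNIP3. Because the list was assembled with results in view, these counts describe the genes and are not independent evidence.

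A sign of RNA quality moved with the groups. The array holds probe sets at the 3' and 5' ends of 6 bovine control transcripts, and their 3' signal less their 5' signal, averaged, is called the 3'-minus-5' index. It averaged 1.98 ± 0.19 in large-follicle arrays and 2.46 ± 0.27 in small-follicle arrays (SD, n = 3 each). The 2-sided exact permutation test gave p = 0.1, which is as low as 3 arrays against 3 can reach. With this index as a term in limma, the adjusted p stayed under the threshold in 2 members, MXI1 (1.44 ± 0.17) and BNIP3 (1.14 ± 0.14), against 0.623% of all genes called higher. The median difference of the 27 was then 0.54.

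**Figure D1:**
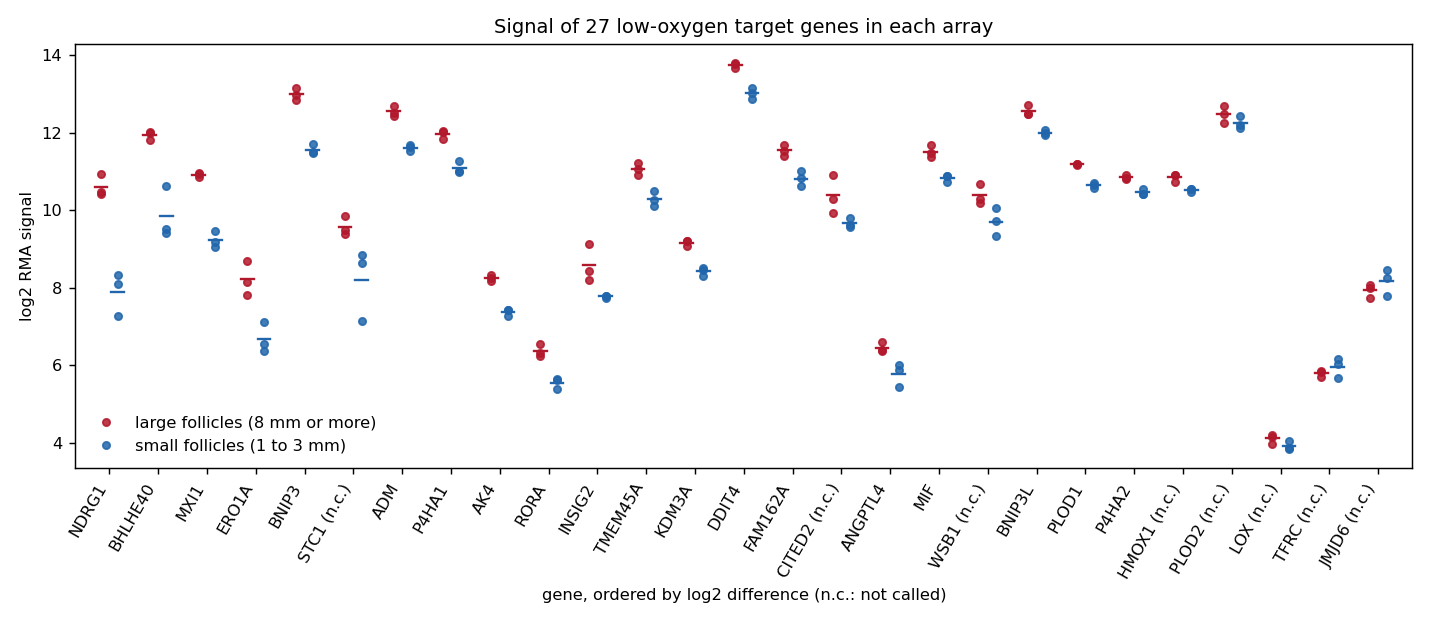
Log2 RMA signal (y axis) of the 27 genes (x axis, ordered by log2 difference) in each array, with large-follicle arrays in red to the left of small-follicle arrays in blue. Points are arrays and bars are means of 3. The red points lie wholly above the blue ones in 23 genes, and the groups overlap in PLOD2, LOX, TFRC and JMJD6.

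**Figure D2:**
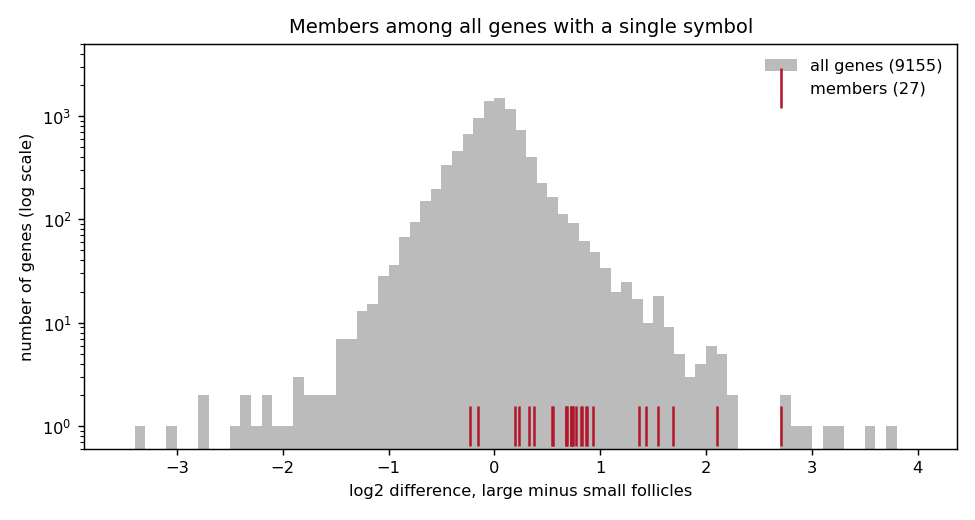
Log2 difference between large and small follicles (x axis) of all 9155 genes as a histogram (y axis, number of genes on a log scale), with the 27 genes as red ticks. The ticks run from -0.23 to 2.71 with a median of 0.74, and the histogram has its median at 0.01.

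The largest difference of the whole list was in NDRG1, which encodes a cytoplasmic protein induced by stress and differentiation. Its signals were 10.48, 10.42 and 10.93 in large-follicle arrays and 7.27, 8.10 and 8.33 in small-follicle arrays. The lowest large-follicle array lay 2.09 above the highest small-follicle one, and the small-follicle pools were the more scattered. The difference was 2.71 ± 0.26 (SE), 6.54-fold, with a limma adjusted p = 0.00132, and it ranked 8 among 9155 genes. With the index as a covariate it was 2.22 ± 0.39 (adjusted p = 0.0545).

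DDIT4, also called REDD1, restrains the growth kinase complex mTORC1. It read 13.68, 13.78 and 13.79 in large-follicle arrays and 13.02, 12.86 and 13.16 in small-follicle arrays. Both groups were tight, and the difference of 0.74 ± 0.11 (limma adjusted p = 0.00461) was several times their spread. These signals were near the top of the array's range, where the highest value was 14.39. INSIG2, an endoplasmic reticulum protein that holds back the processing of the sterol regulators SREBP, read 8.44, 9.14 and 8.21 in large-follicle arrays and 7.74, 7.80 and 7.80 in small-follicle arrays. The small-follicle arrays were nearly equal and large-follicle replicate 2 stood above the rest. Its difference of 0.82 ± 0.21 passed narrowly (limma adjusted p = 0.0404). The call was lost when large-follicle replicate 1 was left out (0.90), and when small-follicle replicate 1 (0.80), 2 (0.83) or 3 (0.83) was. Leaving out large-follicle replicate 2 gave 0.55, which passed.

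HMOX1 and WSB1 were not called. HMOX1, haem oxygenase, read 10.74, 10.90 and 10.91 in large-follicle arrays and 10.48, 10.54 and 10.55 in small-follicle arrays. The groups did not overlap but the difference was small, at 0.33 (95% confidence interval 0.11 to 0.54, limma adjusted p = 0.0582). WSB1, a substrate-binding subunit of a ubiquitin ligase, read 10.30, 10.68 and 10.18 in large-follicle arrays and 9.33, 9.72 and 10.07 in small-follicle arrays. The groups came within 0.11 of each other, and the difference of 0.68 (95% confidence interval 0.22 to 1.14) had a limma adjusted p = 0.0624. It passed without small-follicle replicate 3, at 0.86, and was 0.08 with the index as a covariate.

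All 4 measured genes of mitochondria and mitophagy rose, against 7.08% of all genes called higher. BNIP3 and BNIP3L are related outer membrane proteins that recruit the autophagy machinery to mitochondria. BNIP3 read 12.85, 13.16 and 12.98 in large-follicle arrays and 11.48, 11.49 and 11.72 in small-follicle arrays. Its groups lay 1.13 apart, and the difference was 1.43 ± 0.12, 2.70-fold (limma adjusted p = 0.000906). BNIP3L read 12.49, 12.72 and 12.47 in large-follicle arrays and 11.95, 11.99 and 12.07 in small-follicle arrays. The groups did not overlap here either, and the difference was smaller, at 0.56 ± 0.11, 1.47-fold (limma adjusted p = 0.0122). The 95% confidence intervals of the pair were 1.16 to 1.71 for BNIP3 and 0.32 to 0.80 for BNIP3L, and the difference between the genes was not tested.

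AK4 is an adenylate kinase of the mitochondrial matrix. It read 8.17, 8.24 and 8.33 in large-follicle arrays and 7.27, 7.43 and 7.43 in small-follicle arrays, tight values with a gap of 0.74 between the groups and a difference of 0.87 ± 0.10 (limma adjusted p = 0.00196). FAM162A, a mitochondrial protein tied in human cells to cell death under low oxygen, read 11.41, 11.68 and 11.54 in large-follicle arrays and 10.62, 10.82 and 11.01 in small-follicle arrays. The groups were 0.40 apart, with a difference of 0.73 ± 0.13 (limma adjusted p = 0.00949). Over the 12 other settings that kept all arrays and the threshold, FAM162A ran from 0.39 to 0.73 and BNIP3L from 0.38 to 0.56. With the index as a covariate, BNIP3 alone of these mitochondrial genes kept its call.

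Among the nuclear regulators, 4 of 6 measured genes rose, against 7.08% of all genes called higher. BHLHE40 encodes a basic helix-loop-helix repressor that also takes part in the circadian clock. It read 12.00, 12.03 and 11.82 in large-follicle arrays and 9.52, 9.40 and 10.62 in small-follicle arrays. Small-follicle replicate 3 stood above its group but still at least 1.20 below every large-follicle array. The difference was 2.10 ± 0.29, 4.30-fold (limma adjusted p = 0.0036), and 1.33 ± 0.33 with the index as a covariate (adjusted p = 0.0999).

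MXI1 encodes a MAX partner that opposes MYC, and its adjusted p was the smallest of the 27. It read 10.86, 10.95 and 10.94 in large-follicle arrays and 9.17, 9.04 and 9.47 in small-follicle arrays. The groups lay 1.39 apart with little spread inside either, and the difference was 1.69 ± 0.12, 3.23-fold (limma adjusted p = 0.00079). KDM3A, which removes methyl groups from lysine 9 of histone H3 and needs oxygen to do so, read 9.20, 9.21 and 9.09 in large-follicle arrays and 8.31, 8.45 and 8.51 in small-follicle arrays. Its difference was 0.74 ± 0.10 (limma adjusted p = 0.00328) with a gap of 0.58. RORA, an orphan nuclear receptor, read 6.32, 6.56 and 6.23 in large-follicle arrays and 5.64, 5.38 and 5.61 in small-follicle arrays, at 0.83 ± 0.12 (limma adjusted p = 0.00501).

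CITED2 and JMJD6 were not called. CITED2, which competes with the hypoxia-inducible factors for the coactivators CREBBP and EP300, read 10.29, 10.92 and 9.94 in large-follicle arrays and 9.80, 9.62 and 9.57 in small-follicle arrays. The large-follicle pools were scattered, and the groups came within 0.14. Its difference of 0.72 (95% confidence interval 0.21 to 1.23, limma adjusted p = 0.0721) was 0.45 when large-follicle replicate 2 was left out. It was 0.94 and passed when large-follicle replicate 3 was left out. JMJD6, an oxygen-dependent hydroxylase of the Jumonji family, read 8.00, 7.74 and 8.07 in large-follicle arrays and 8.47, 8.24 and 7.80 in small-follicle arrays. The groups overlapped, and the difference was -0.23 (95% confidence interval -0.64 to 0.17, limma adjusted p = 0.46). Its second probe set read 0.10 (95% confidence interval -0.18 to 0.39) at a mean signal of 3.81, under the array's lower quartile of 3.83. Both intervals span 0, so neither probe set gives a direction. The first is of a type that can bind several transcripts, and with the index as a covariate it read 0.29.

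Genes of collagen modification and disulphide formation rose in 4 of 6 measured cases, against 7.08% of all genes called higher. ERO1A, the oxidase that recharges protein disulphide isomerase, read 8.16, 8.68 and 7.82 in large-follicle arrays and 6.36, 6.56 and 7.11 in small-follicle arrays. Both groups were scattered and still 0.71 apart, and the difference was 1.54 ± 0.25, 2.92-fold (limma adjusted p = 0.00688). With the index as a covariate it was 0.82 ± 0.25 (adjusted p = 0.147). P4HA1 and P4HA2 encode alternative catalytic subunits of the collagen prolyl hydroxylase. P4HA1 read 12.03, 12.04 and 11.83 in large-follicle arrays and 10.99, 11.27 and 11.01 in small-follicle arrays, a difference of 0.88 ± 0.12 (limma adjusted p = 0.00328). With the index as a covariate the difference was 0.89, but P4HA1 was not called. P4HA2 read 10.83, 10.91 and 10.80 in large-follicle arrays and 10.42, 10.56 and 10.43 in small-follicle arrays. The groups were 0.24 apart, and the difference of 0.38 ± 0.09 (limma adjusted p = 0.0342) did not pass with any array left out, at 0.39 without large-follicle replicate 1, 0.35 without 2 and 0.40 without 3, and at 0.35 without small-follicle replicate 1, 0.42 without 2 and 0.36 without 3. It did not pass with the replicate number as a block either (adjusted p = 0.0849).

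PLOD1 and PLOD2 are lysyl hydroxylases, which prepare collagen for crosslinking. PLOD1 read 11.20, 11.17 and 11.19 in large-follicle arrays and 10.58, 10.71 and 10.64 in small-follicle arrays, the tightest values of the list, with a difference of 0.54 ± 0.09 (limma adjusted p = 0.00741). PLOD2 read 12.48, 12.70 and 12.26 in large-follicle arrays and 12.20, 12.12 and 12.42 in small-follicle arrays. Its groups overlapped, at 0.23 (95% confidence interval -0.08 to 0.55, limma adjusted p = 0.333), and with the index as a covariate it read -0.04 ± 0.19. LOX, the lysyl oxidase that forms the crosslinks, read 3.98, 4.21 and 4.15 in large-follicle arrays and 4.04, 3.87 and 3.84 in small-follicle arrays. These signals were low for the array, where the lower quartile of the means is 3.83, and its difference of 0.20 (95% confidence interval -0.05 to 0.44, limma adjusted p = 0.29) has little to rest on.

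Of 6 measured genes of secreted and surface proteins, 4 rose, against 7.08% of all genes called higher. ADM encodes adrenomedullin, a peptide that widens vessels. It read 12.52, 12.69 and 12.43 in large-follicle arrays and 11.67, 11.54 and 11.63 in small-follicle arrays. The groups lay 0.76 apart, and the difference was 0.93 ± 0.10, 1.91-fold (limma adjusted p = 0.00189). It was 0.85 ± 0.16 with the index as a covariate (adjusted p = 0.0624). MIF, a cytokine that many non-immune cells also make, read 11.36, 11.68 and 11.47 in large-follicle arrays and 10.87, 10.88 and 10.72 in small-follicle arrays, at 0.68 ± 0.11 (limma adjusted p = 0.0077). TMEM45A, a membrane protein, read 11.07, 11.21 and 10.91 in large-follicle arrays and 10.12, 10.27 and 10.50 in small-follicle arrays, at 0.77 ± 0.13 (limma adjusted p = 0.0082). Both genes showed gaps of more than 0.4 between the groups.

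ANGPTL4, a secreted inhibitor of lipoprotein lipase, read 6.59, 6.38 and 6.39 in large-follicle arrays and 5.43, 5.87 and 6.00 in small-follicle arrays. Its difference of 0.69 ± 0.15 (limma adjusted p = 0.0241) lost its call when large-follicle replicate 1 (0.62), 2 (0.72) or 3 (0.72) was left out, when small-follicle replicate 2 (0.74) was, and with the replicate number as a block (adjusted p = 0.0614). STC1, a secreted glycoprotein first known as a calcium regulator of fish, had the largest difference among the genes not called. It read 9.85, 9.50 and 9.38 in large-follicle arrays and 7.14, 8.85 and 8.63 in small-follicle arrays. Small-follicle replicate 1 was far below the other two, and the groups still lay 0.53 apart. The difference was 1.37 ± 0.40 (95% confidence interval 0.46 to 2.28, limma adjusted p = 0.0577). Without small-follicle replicate 1 it was smaller, at 0.84, and passed (adjusted p = 0.0254), and it also passed without small-follicle replicate 2, at 1.69 (adjusted p = 0.047). TFRC, the receptor that takes up iron-loaded transferrin, read 5.84, 5.71 and 5.85 in large-follicle arrays and 6.03, 6.17 and 5.67 in small-follicle arrays. Its groups overlapped, at -0.16 (95% confidence interval -0.47 to 0.16, limma adjusted p = 0.537), and it read 0.17 with the index as a covariate.

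**Figure D3:**
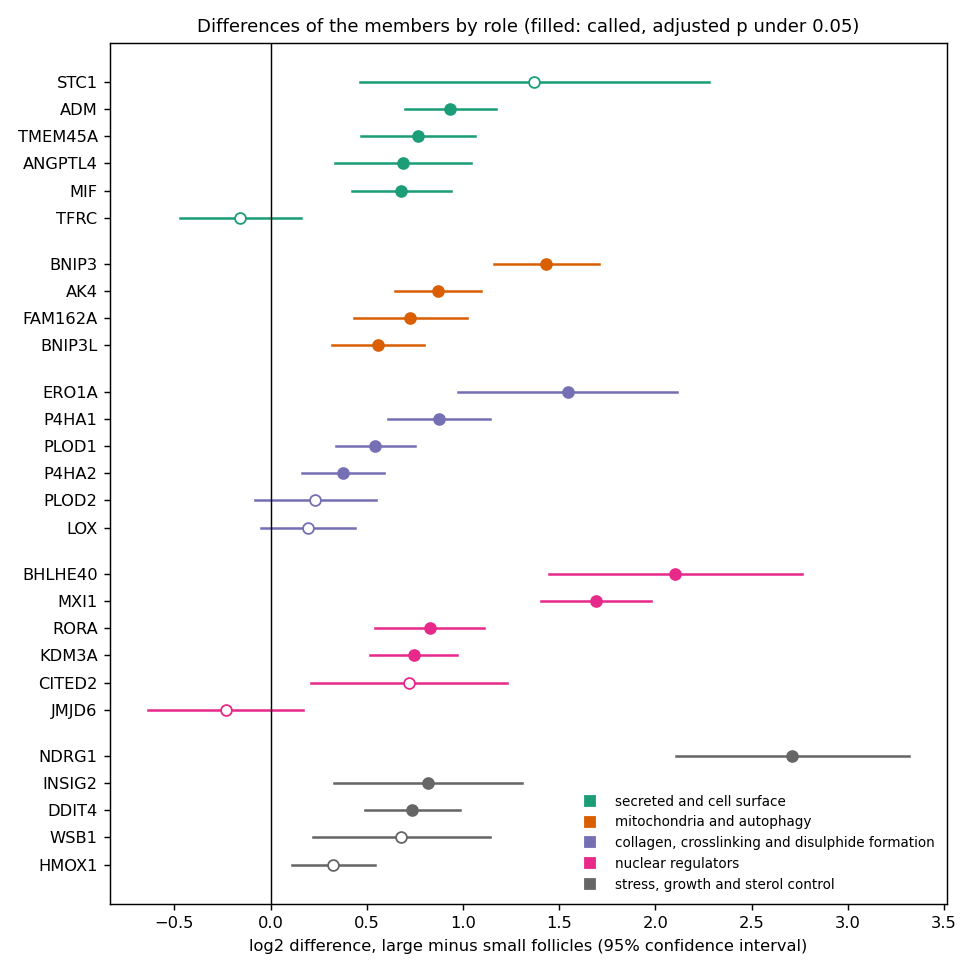
Log2 difference between large and small follicles (x axis) of each of the 27 genes (y axis, grouped by role), with its 95% confidence interval from limma as a line. Filled points passed the adjusted p threshold of 0.05, and all 4 mitochondrial genes did, against 7.08% of all genes called higher. The 2 genes to the left of 0 are TFRC at -0.16 and JMJD6 at -0.23.

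Several of the genes were read by more than 1 probe set, which gives a check of the same transcript by other probes on the same arrays. Of the 41 probe sets, 26 were called higher and 0 lower, against 5.72% of all 24016 probe sets called higher. In 5 of the 10 genes with several probe sets all of them were called: BNIP3, ERO1A, KDM3A, BHLHE40 and MXI1. Sizes differed between probe sets. BNIP3 read 1.43 ± 0.12, 2.20 ± 0.22 and 1.11 ± 0.10 from its brightest probe set to its dimmest. The middle one is of a type that can bind several transcripts of a gene.

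The others kept closer together in some genes and not in others. MXI1 read 1.69, 1.91 and 1.64, BHLHE40 2.10 and 1.65, and KDM3A 0.74 and 0.95. The second probe set of ERO1A read 0.41 ± 0.11 (limma adjusted p = 0.0482) at a very low signal, 3.00 in large-follicle arrays and 2.59 in small-follicle arrays. INSIG2 passed in 1 of 3 probe sets, with the others at 0.42 and 0.79, and RORA in 1 of 3, with the others at 0.36 and 0.62. The second probe set of PLOD1 read 0.18 (limma adjusted p = 0.293), and PLOD2 passed in neither probe set, at 0.23 and 0.54.

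**Figure D4:**
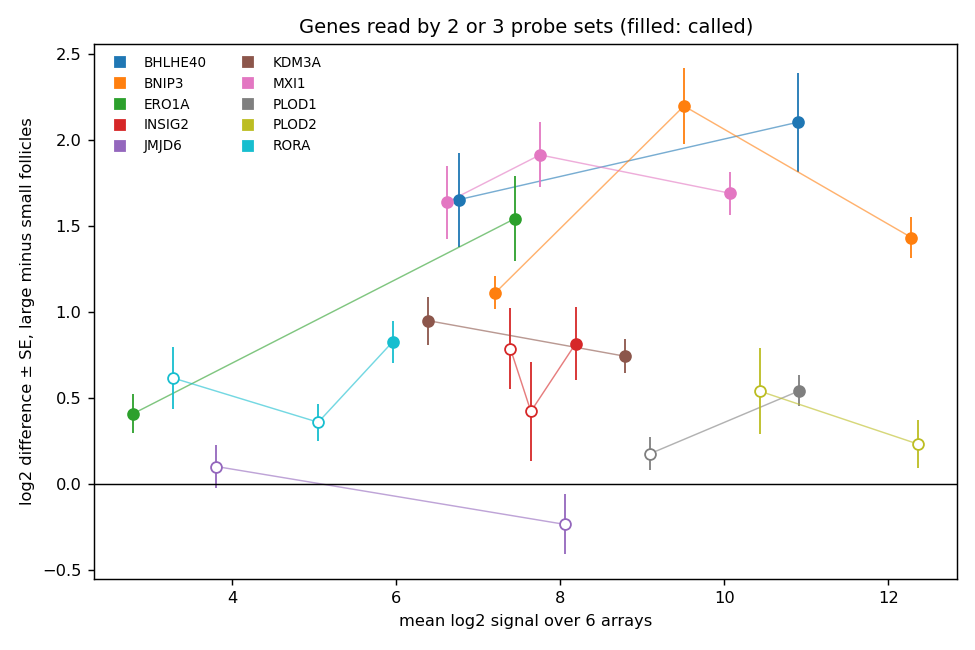
Log2 difference ± SE (y axis) against mean log2 signal over 6 arrays (x axis) for the 24 probe sets of the 10 genes with several, joined by lines within a gene. Filled points were called by limma. All points of BNIP3, MXI1, BHLHE40, KDM3A and ERO1A are filled, and the points of JMJD6 lie on either side of 0.

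The arrays of a group did not carry the genes equally. The mean deviation of the 27 genes from their mean over all arrays was 0.39, 0.53 and 0.34 in large-follicle replicates 1, 2 and 3, and -0.55, -0.41 and -0.31 in small-follicle replicates 1, 2 and 3. Of the 19 genes that rose, 14 had their highest value in large-follicle replicate 2, and 13 had their lowest in small-follicle replicate 1. These arrays were also at the ends of the 3'-minus-5' index, which was 2.15, 1.77 and 2.01 in large-follicle replicates 1, 2 and 3 and 2.68, 2.53 and 2.16 in small-follicle replicates 1, 2 and 3.

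**Figure D5:**
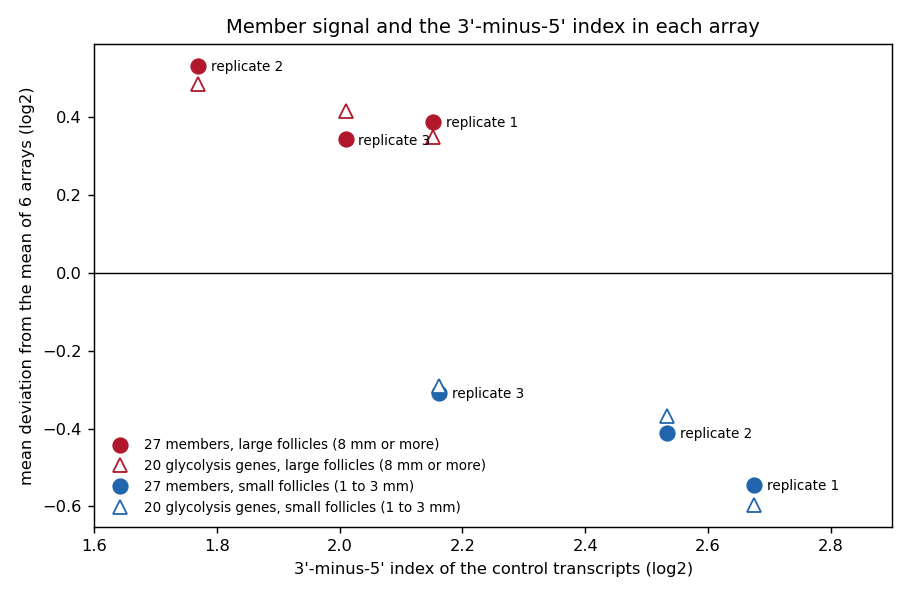
Mean deviation of the 27 genes (circles) and of 20 glycolysis genes (triangles) from their mean over the 6 arrays (y axis, log2), against the 3'-minus-5' index of the control transcripts (x axis, log2), with large-follicle arrays in red and small-follicle arrays in blue. The circles lie between 0.34 and 0.53 in large-follicle arrays and between -0.55 and -0.31 in small-follicle arrays, and the index is lower in every large-follicle array.

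Markers of granulosa and cumulus cells, listed together, had a high mean signal in both groups. The list cannot tell cumulus cells from other granulosa cells. Of 10 granulosa and cumulus markers, all were measured, with a mean signal of 10.86 to 11.02 in large-follicle arrays and 10.45 to 10.57 in small-follicle arrays. Of these, INHBA, CYP19A1, NR5A2, INHA and FSHR rose and GATM fell, and FOXL2, at 4.89 and 4.58, was the one with a low signal. Among 12 leukocyte markers 10 were measured and 2 rose, CORO1A and LCP1, with a median difference of 0.54 over the 10. The largest difference was in CD14, at 1.02 (limma adjusted p = 0.282), and all 10 were higher in sign. Their mean signal was 4.49 to 5.53 in large-follicle arrays and 4.22 to 4.81 in small-follicle arrays, and the pan-leukocyte marker PTPRC was at 3.57 and 3.49. By array, the leukocyte mean was 5.53, 4.75 and 4.49 in large-follicle replicates 1, 2 and 3, where the 27 genes averaged 10.04, 10.19 and 9.997. It was 4.26, 4.22 and 4.81 in small-follicle replicates 1, 2 and 3, where the 27 genes averaged 9.11, 9.24 and 9.35. The part of leukocytes in the differences was not tested. Of 6 endothelial markers, with means of 3.77 to 3.96 in large-follicle arrays and 3.80 to 3.90 in small-follicle arrays, 1 fell, TEK, by 0.57, and 4 of 6 were higher in sign. At an unadjusted p under 0.05, 1 was higher, VWF, at 0.46 (limma adjusted p = 0.0893), and 1 lower. The 5 theca markers averaged 6.50 to 7.01 in large-follicle arrays and 6.23 to 6.57 in small-follicle arrays. All 5 were higher in sign and 0 were called by limma, with 1 higher at an unadjusted p under 0.05, LHCGR. STAR read 0.91 ± 0.42 (limma adjusted p = 0.206). Levels differed widely within this list. INSL3 averaged 9.41 and 9.38, and HSD3B1 9.54 and 9.38, in large-follicle and small-follicle arrays. CYP17A1 averaged 4.92 and 4.79, STAR 5.85 and 4.94, and LHCGR 3.85 and 3.54, in the same order. The part of theca cells in the differences was not tested. Of 5 oocyte markers, with means of 3.92 to 3.96 in large-follicle arrays and 3.75 to 4.08 in small-follicle arrays, and 2 red blood cell markers, with means of 3.65 to 3.85 and 3.68 to 3.96, 0 were called by limma and 0 had an unadjusted p under 0.05.

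Of 16 listed genes of the hypoxia-inducible factors and their regulators, 10 were measured, 1 rose and 0 fell by limma (3 and 0 at an unadjusted p under 0.05), 10% higher against 7.08% of all genes, with a median difference of 0.09. The gene that rose was EGLN3, a prolyl hydroxylase that is itself a target of the pathway, with 8.09 in large-follicle arrays and 5.29 in small-follicle arrays and a difference of 2.79 ± 0.27 (limma adjusted p = 0.00132). EGLN1, the main prolyl hydroxylase, read 0.52 ± 0.15 (limma adjusted p = 0.052), and EPAS1, an alpha subunit, 0.67 ± 0.23 (limma adjusted p = 0.103). HIF1A, whose control is mostly on the protein, read 13.36 and 13.25, a difference of 0.11 ± 0.09 (limma adjusted p = 0.482).

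Glycolysis, the other arm of the low-oxygen response, had 20 of 22 listed genes measured, with a median difference of 0.66. Of these, 16 rose and 0 fell by limma (18 and 0 at an unadjusted p under 0.05). The share called higher was 80%, against 7.08% of all genes. SLC16A3, the lactate exporter, rose by 1.54, SLC2A1, a glucose transporter, by 2.19, PFKP by 1.36 and LDHA by 0.75. Some of the 27 genes also answer to other signals. Of 10 listed genes of the integrated stress response, 9 were measured and 3 rose, VLDLR by 0.81, DDIT3 by 1.22 and CEBPB by 0.93, while ATF4, its central factor, read 0.13 (limma adjusted p = 0.613). The median of the 9 was 0.29, and 33.3% of them were called higher, against 7.08% of all genes. Of 10 listed genes of iron handling, the setting of TFRC and HMOX1, 8 were measured, with a median difference of 0.06. By limma 0 rose (1 at an unadjusted p under 0.05) and 2 fell, NCOA4 by 0.38 and SLC11A2 by 0.39. The share called lower was 25%, against 8.30% of all genes. The ferritin light chain FTL read 0.34 (limma adjusted p = 0.0557).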

How the data were processed

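Per the submitters' processing notes, the authors made the deposited log2 probe set signals with RMA; no source used here names the software, its version or settings. In the 6 arrays they span 1.80 to 14.39. Control probe sets (112) were not tested. Differences were fitted over 24016 probe sets with limma 3.58.1 in R 4.3.3 (group only, 2-sided, Benjamini-Hochberg adjustment, threshold 0.05), without a filter on low values, and tested on simulated data. Of the probe sets, 13292 carry 1 gene symbol, 86 several and 10638 none. All 27 members are named, and up to 4 genes with the smallest p of each other pathway list. That rule was not kept for the cell type markers. FOXL2, PTPRC and ATF4 were named for their roles, after their values were seen. The labels give 1 date for all arrays. The members, lists and alternatives were chosen with earlier results of these data known. Arrays correlated at 0.9927 to 0.9948 within groups and 0.9817 to 0.9879 across them. Figures used python 3.11.15 and matplotlib 3.10.9.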

Additional observations from a re-analysis of the deposited data

How the results depend on the processing

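Over 20 other settings, the count of genes that rose lay between 2 and 23, and 0 fell in any. In the same settings the share of all tested genes called higher lay between 0.623% and 11.7%. Leaving out 1 array gave 16 to 18 higher genes, against 4.27% to 6.02% of all genes, and medians of 0.69 to 0.82. Adding the 3'-minus-5' index to the fit gave 2 higher genes, against 19, and a median of 0.54, against 0.74; in that fit PLOD2 read -0.043, TFRC 0.17 and JMJD6 0.29, each with its sign turned, and the fit has 1 residual degree of freedom less. With only probe sets that bind 1 transcript, JMJD6 read 0.10 from its dimmer probe set, at a mean signal of 3.81. Thresholds of 0.01 and 0.1 gave 15 and 23 higher genes, against 2.85% and 10.1% of all genes. Quantile, median and cyclic loess scaling moved the median difference over all probe sets by at most 0.01 and gave 19 to 21 higher genes. The share of all genes called higher was then 7.69%, 6.78% and 7.92%. With the replicate number as a block 17 genes were higher, against 4.87% of all genes, and the calls of ANGPTL4 and P4HA2 were lost. Deviations of arrays with the same number from their group means correlated at -0.002, -0.05 and -0.34. With means of only 3 arrays, these values cannot show whether arrays with the same number form a pair. HMOX1 passed in 5 of 12 settings that kept all arrays and the threshold, WSB1 in 3, STC1 in 2 and CITED2 in 1. RMA gives no detection call, so low signals such as that of LOX set no bound.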
